A study of Mus musculus with 13 samples.

Results

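The miRNAs miR-1a-3p, miR-133a-3p and miR-206-3p (mmu-miR-1a-3p, mmu-miR-133a-3p and mmu-miR-206-3p in the count tables) were chosen by name as the classical miRNAs of striated muscle, and all 3 were found in both deposited tables, which together list 1452 mature mouse miRNAs. They were followed through 13 small RNA libraries of extracellular vesicles from a mouse model of cancer cachexia. Cachexia is the loss of muscle and fat that accompanies some tumours. Of these libraries, 3 came from vesicles (TMVs) shed by C26 cells, a single colon adenocarcinoma line, into serum-free medium over 48 h. Another 6 came from plasma vesicles of Balb/C mice labelled cachectic, killed 14 days after a subcutaneous injection of C26 cells, and 4 from plasma vesicles of Balb/C mice labelled healthy. No treatment of the healthy mice is described, and neither age nor sex is given. The descriptions of control replicates 2 and 3 carry a pair of numbers each, whose meaning is not stated.

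miRNAs are short RNAs that lower the output of messenger RNAs carrying a match to their seed, the bases near the 5′ end. miR-1 and miR-133a have separate precursors that are cut from shared longer transcripts in heart and skeletal muscle. There miR-1 favours differentiation and miR-133a restrains it while myoblasts divide. miR-206 has the same seed as miR-1, is made in skeletal muscle but hardly in heart, and is known for its part in muscle regeneration and in the response to loss of innervation. All 3 enter blood when muscle is damaged, in vesicles or bound to protein.

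In GENCODE M21 (GRCm38) the precursor of miR-206 lies at chr1:20679010-20679082 on the plus strand, within an exon of the long non-coding RNA Gm28653. The precursor of miR-133b lies at chr1:20682769-20682887 in an exon of the same RNA, 3686 bases further on. miR-1a-3p can come from Mir1a-1 at chr2:180389048-180389124 and miR-133a-3p from Mir133a-2 at chr2:180398379-180398482, both on the plus strand, 9254 bases apart and in no other annotated gene. Each has another copy, Mir1a-2 and Mir133a-1, on another chromosome, and counts of the mature forms do not separate the copies. No source used here gives the build used for counting.

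The sequences shown are those that place miR-206-3p, the member whose level set 1 tumour-bearing library apart, beside its cluster partner miR-133b-3p and beside miR-499-5p, a marker of heart and slow muscle fibres. They come from RefSeq (GRCm38.p6), run 5′ to 3′, and have the seed (bases 2 to 8) in capitals. Among the members, miR-206-3p had an entry in that table.
miR-206-3p: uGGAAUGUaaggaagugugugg
miR-133b-3p: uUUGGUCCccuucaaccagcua
miR-499-5p: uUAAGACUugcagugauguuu
In the 73-base hairpin of Mir206, the mature 3p arm is in capitals.
Mir206 hairpin: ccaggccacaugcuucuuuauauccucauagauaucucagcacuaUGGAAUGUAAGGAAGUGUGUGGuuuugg
Of the 1679 mature miRNAs in the table, 2 others had the seed GGAAUGU, and they were rare here: miR-6349 had 25 counts over all plasma libraries and 1 in TMVs, and miR-6382 had 0 in plasma. miR-1a-3p also has this seed but had no entry in that table, so it is not one of these 2. It was not rare, with 13999 counts over all plasma libraries, and it differs from miR-206-3p outside the seed. miR-133a-3p and miR-133b-3p are near-identical, and no source used here says how reads were shared between them.

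The values are raw counts, given below also as CPM, which scales them to a common library total. Total counts ran from 112357 to 170571 in TMVs and from 7962 (control replicate 4) to 131385 in plasma, so 3 counts, the limit used throughout for a count of 0 (the one-sided 95% bound), equal 17.6 to 26.7 CPM in TMVs and 22.8 to 377 CPM in plasma. A single miRNA, miR-5119, split the plasma libraries across the groups. It took up 26.6% to 58.7% of the counts in 5 libraries (control replicate 4 and the first 4 C26-bearing replicates) and at most 2.55% in the other 5. Plasma levels were therefore also scaled with TMM, which sets libraries to a common level through the bulk of their miRNAs (TMM-scaled CPM), and each difference is given within these 2 parts too. Whether each library stands for its own animal or culture is not stated, and p-values refer only to the spread among the libraries, which may be technical. Mature miRNAs have nearly equal lengths, so their counts were compared without division by length, but adapter ligation is known to favour some sequences, and a ratio of 2 miRNAs is not a ratio of molecules.

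In TMVs miR-206-3p was the steadiest of the 3. It had 180, 185 and 174 counts in replicates 1 to 3, which is 1228, 1647 and 1020 CPM, or 1298 ± 319 CPM (SD, n = 3). The 3 libraries lay within 1.61-fold of each other, and miR-206-3p ranked between 64 and 77 among all miRNAs of its library. A muscle-linked miRNA was thus counted in vesicles that a colon tumour line shed into serum-free medium, at a similar level in all 3 libraries.

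miR-1a-3p and miR-133a-3p were uneven in TMVs. miR-1a-3p had 118, 1014 and 110 counts, or 805, 9025 and 645 CPM. miR-133a-3p had 2, 30 and 2 counts, or 13.6, 267 and 11.7 CPM, with exact 95% Poisson intervals of 1.65 to 49.3, 180 to 381 and 1.42 to 42.4 CPM that cover counting error only. Replicate 2 was the high library for both, and its intervals did not meet those of the others. Its level was 11.2-fold above replicate 1 for miR-1a-3p and 19.6-fold for miR-133a-3p, against 1.34-fold for miR-206-3p. Because of this library the means, 3492 ± 4793 CPM for miR-1a-3p and 97.5 ± 147 CPM for miR-133a-3p (SD, n = 3), describe none of the 3. Without TMV replicate 2 they were 725 and 12.7 CPM.

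The excess in TMV replicate 2 was then set beside that of all other miRNAs. Among 157 miRNAs with at least 1 count in each TMV library and at least 30 in one, miR-133a-3p and miR-1a-3p had the largest and second largest excess over the higher of the other 2 libraries. Among these 157 they were the 2 that exceeded it more than 2-fold. The next in order was miR-10b-5p with 1.87-fold, and then miR-206-3p with 1.34-fold. miR-133a-3p reached 30 counts in replicate 2 alone, so it passed the filter through the library it was ranked on. Some miRNAs below the filter were also highest in replicate 2, and their number was not counted. In replicates 1 to 3, miR-193b-5p stood at 13.3, 94.1 and 11.4 TMM-scaled CPM and miR-127-3p at 6.64, 104 and 17.1. Red cell miRNAs held 0.498% of the counts in TMV replicate 2, against 0.50% and 1.55% in replicates 1 and 3, and liver miRNAs 0.157% against 0.108% and 0.208%. This library was singled out after its values were seen, and no test was made.

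**Figure D1:**
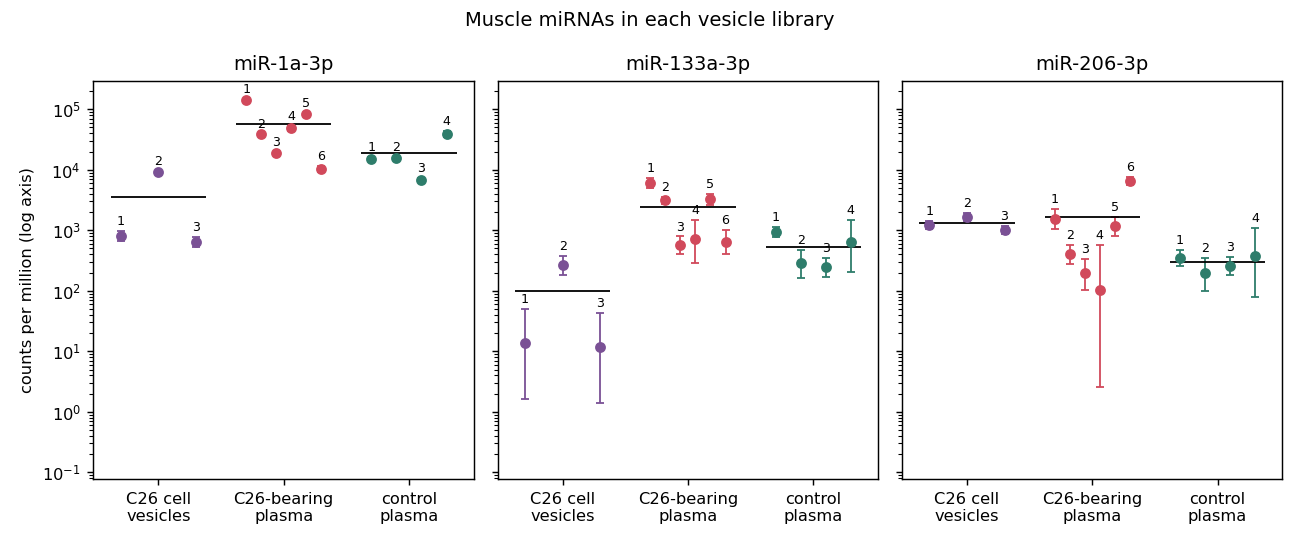
Level of each muscle miRNA in each of the 13 libraries, in CPM on a log axis. Points are libraries with their replicate number, bars are exact 95% Poisson intervals (counting error only) and lines are group means; TMV replicate 2 stands above the other TMV libraries for miR-1a-3p and miR-133a-3p, and C26-bearing replicate 6 above the other plasma libraries for miR-206-3p.

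In plasma vesicles miR-1a-3p, the broadest of these markers of heart and skeletal muscle, was abundant. From replicate 1 to 6 the C26-bearing libraries held 2727, 2925, 1230, 476, 2328 and 336 of its counts, and from replicate 1 to 4 the controls held 1922, 857, 887 and 311. It ranked between 2 and 18 among all miRNAs in C26-bearing libraries and between 4 and 29 in control libraries. The TMM-scaled CPM had its lowest value, 11758, in C26-bearing replicate 6, a median of 42536 and its highest value, 146183, in replicate 1. The controls stood at 16889, 13209, 5006 and 53737. The groups overlapped: replicates 1 and 5, 2 of the 6 C26-bearing libraries, exceeded every control and the other 4 lay within the range of the controls. Control replicate 4, the shallowest library and the one control rich in miR-5119, was the highest control.

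miR-133a-3p, the partner of miR-1 on shared transcripts, was lower in level and wider apart between the groups. In the same order, C26-bearing libraries held 116, 239, 38, 7, 90 and 21 counts and controls 117, 16, 32 and 5. The TMM-scaled CPM ran from 712 in C26-bearing replicate 4 to 6218 in replicate 1, with a median of 1871, and stood at 1028, 247, 181 and 864 in the controls. C26-bearing replicates 1, 2 and 5 exceeded every control, and the other 3 lay within the range of the controls. The low values rest on few reads: the 7 counts of C26-bearing replicate 4 allow 286 to 1468 CPM and the 5 of control replicate 4 allow 204 to 1466 CPM (exact 95% Poisson intervals).

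miR-206-3p, the skeletal muscle form, had few counts in plasma except in 1 library. In the same order, the plasma of tumour-bearing mice gave 30, 31, 13, 1, 33 and 210 counts and that of healthy mice 44, 11, 34 and 3. The TMM-scaled CPM ran from 102 in C26-bearing replicate 4 to 7349 in replicate 6, with a median of 715, and stood at 387, 170, 192 and 518 in the controls. Replicates 1, 5 and 6 lay above all controls, replicate 4 below all of them and replicates 2 and 3 within their range. The value of replicate 4 is a single count, with an interval of 2.58 to 567 CPM.

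C26-bearing plasma was then compared with control plasma. The mean level of all 3 miRNAs was higher in C26-bearing plasma, and none of these differences passed the test. miR-1a-3p stood at 57617 ± 48017 TMM-scaled CPM (SD, n = 6) against 22210 ± 21597 (SD, n = 4), a log2 fold change of 1.38 (SE 0.806) with an edgeR adjusted p of 0.609. miR-133a-3p stood at 2400 ± 2144 against 580 ± 429, a log2 fold change of 2.09 (SE 0.853) with an edgeR adjusted p of 0.395. miR-206-3p stood at 1800 ± 2775 against 317 ± 166, a log2 fold change of 2.60 (SE 1.15) with an edgeR adjusted p of 0.395. The adjusted p came from edgeR's quasi-likelihood test with Benjamini-Hochberg adjustment over the 130 miRNAs that passed the count filter, all 3 members among them.

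The members' counts stand against the following background. The test called 0 of the 3 members and 0 of all 130 miRNAs (0%) at an adjusted p under 0.05. At an unadjusted p under 0.05 with a higher level in C26-bearing plasma it had 2 of 3, miR-133a-3p and miR-206-3p, and 9 of 130 (6.92%). A log2 fold change above 0 was found for 3 of 3 members and 66 of 130 miRNAs (50.8%), and the median over all miRNAs tested was 0.01. By size of the log2 fold change miR-206-3p was 6th, miR-133a-3p 10th and miR-1a-3p 19th from the top. The groups did not overlap for 0 of 3 members, and for 0.769% of all miRNAs with C26-bearing libraries all above the controls. DESeq2 called 0 of 3 members and 3.54% of the miRNAs it gave an adjusted p. The DESeq2 adjusted p was 0.267 for miR-1a-3p, 0.0566 for miR-133a-3p and 0.0618 for miR-206-3p. limma voom with sample quality weights called miR-133a-3p (log2 fold change 2.78, SE 0.719, adjusted p = 0.0247) among 5.38% of miRNAs called higher. It called neither of the others, with a limma voom adjusted p of 0.0574 for miR-1a-3p and 0.186 for miR-206-3p. CPM are shares of the counted RNA, so more vesicles from muscle, more of the miRNA per vesicle and less of other RNA cannot be told apart.

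Single libraries and the miR-5119 parts moved these values. Without C26-bearing replicate 6 the log2 fold change of miR-206-3p was 1.24 (SE 0.785, edgeR adjusted p = 0.392). Without C26-bearing replicate 1 that of miR-1a-3p was 0.83, and without control replicate 4 it was 2.52 (SE 0.852, edgeR adjusted p = 0.161). In the 5 libraries poor in miR-5119 (2 C26-bearing, 3 control) the log2 fold changes were 1.88 (SE 0.813) for miR-1a-3p, 1.94 (SE 0.873) for miR-133a-3p and 4.13 (SE 0.846) for miR-206-3p. In turn, edgeR gave an adjusted p of 0.426, 0.438 and 0.103, with 0 of 141 miRNAs called (0%). For miR-206-3p both C26-bearing libraries of that part, at 1041 and 7349 TMM-scaled CPM, lay above its 3 controls. The higher of the 2 is replicate 6, and the share of the 141 miRNAs that separated in this way was not counted. Of 10 possible assignments of these 5 libraries, 1 gives such an order, so it is not support for a difference. The other members overlapped there. The lower C26-bearing library had 11758 for miR-1a-3p and 735 for miR-133a-3p, against up to 16889 and 1028 in the controls. In the 5 libraries rich in miR-5119, where control replicate 4 is the lone control and is assumed to vary like the others, they were 0.38 (SE 1.26), 1.73 (SE 1.66) and 0.32 (SE 1.76). With the part as a term in the model they were 1.18 (SE 0.671), 1.80 (SE 0.791) and 2.95 (SE 1.02), and the 1.54% of miRNAs called held no member.

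**Figure D2:**
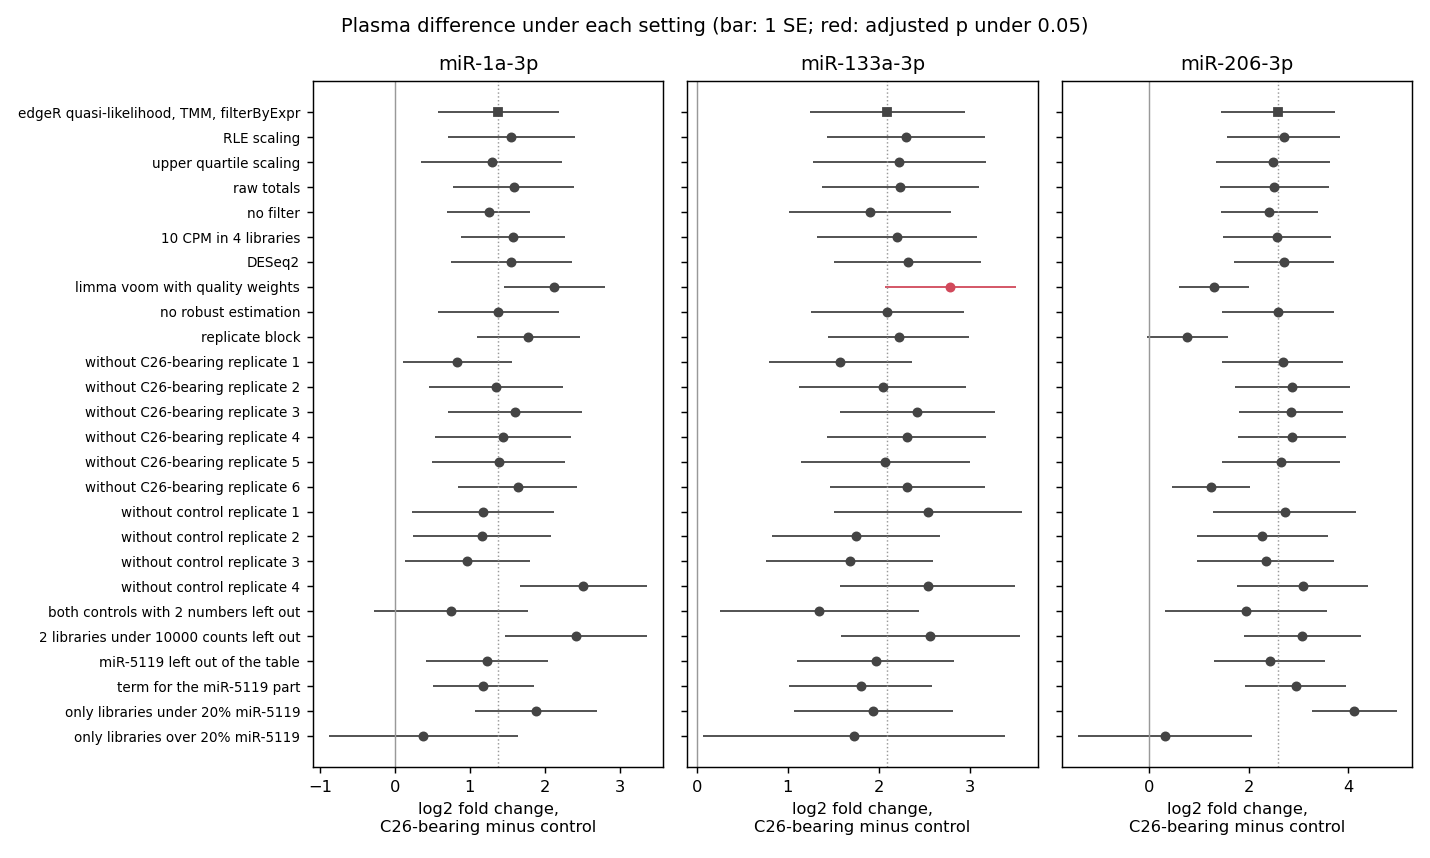
Difference of each muscle miRNA between C26-bearing and control plasma as a log2 fold change, under the reported setting (square, top) and 25 alternatives (circles), with bars of 1 SE. All estimates lie above 0, 1 is drawn in red for an adjusted p under 0.05 (miR-133a-3p with limma voom, 2.78), and miR-206-3p falls to 1.24 without C26-bearing replicate 6.

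A ratio of counts within a library needs no scaling to the library total, though its precision still follows the depth and its difference between groups moved with the miR-5119 part. miR-1a-3p had the most counts of the 3 in all 10 plasma libraries. Its ratio to miR-133a-3p ran from 12.2 in C26-bearing replicate 2 to 68.0 in replicate 4 (median 24.7) and was 16.4, 53.6, 27.7 and 62.2 in control replicates 1 to 4. The exact 95% binomial interval of 10.7 to 14.0 in C26-bearing replicate 2 did not meet that of 19.5 to 28.6 in replicate 1 of the same group. Between the groups the mean log2 ratio, with 0.5 added to each count, was 4.63 ± 0.83 (SD, n = 6) in C26-bearing and 5.08 ± 0.84 (SD, n = 4) in control plasma. The difference of -0.45 did not pass an exact permutation test over its 210 group assignments (two-sided p = 0.414, adjusted over the 3 ratios 0.962; the smallest possible p is 0.00476). It was -0.51 in the libraries poor in miR-5119 (exact permutation p = 0.40) and -1.04 in those rich in it (exact permutation p = 0.60).

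The ratio of miR-206-3p to miR-1a-3p, which share a seed, varied widely between libraries. Replicates 1 to 5 of the C26-bearing group had 0.0110, 0.0106, 0.0106, 0.0021 and 0.0142, against 0.0229, 0.0128, 0.0383 and 0.0096 in the controls. C26-bearing replicate 6 had 0.625 (exact 95% binomial interval 0.523 to 0.745). The mean log2 ratio was -5.77 ± 2.61 (SD, n = 6) in C26-bearing and -5.70 ± 0.81 (SD, n = 4) in control plasma, a difference of -0.07 (exact permutation p = 0.962, adjusted 0.962). The difference was 2.05 in the libraries poor in miR-5119, which include replicate 6, and -0.48 in those rich in it (exact permutation p = 0.40 in each). TMV replicates 1 and 3 had 1.53 (1.20 to 1.94) and 1.58 (1.24 to 2.03), and TMV replicate 2 had 0.182 (0.155 to 0.214). miR-206-3p thus outnumbered miR-1a-3p in 2 of 3 TMV libraries and in 0 of 10 plasma libraries. TMVs and plasma are different materials counted in separate tables, so this contrast cannot be told apart from a difference between runs and was not tested.

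The ratio of miR-206-3p to miR-133a-3p gave a separation that 1 library undid. Replicates 1 to 5 of the C26-bearing group had 0.259, 0.130, 0.342, 0.143 and 0.367 and replicate 6 had 10.0, while the controls had 0.376, 0.688, 1.06 and 0.60. Relative to miR-133a-3p, miR-206-3p was thus lower than in all controls in 5 of 6 C26-bearing libraries and higher than in all controls in the remaining one. With all libraries the mean log2 ratio was -1.14 ± 2.24 (SD, n = 6) against -0.62 ± 0.61 (SD, n = 4), a difference of -0.52 (exact permutation p = 0.748, adjusted 0.962). Without C26-bearing replicate 6 the difference was -1.40 (exact permutation p = 0.00794 over 126 assignments, the smallest these allow, adjusted over the 3 ratios 0.0238). That library was the one C26-bearing library on the other side of the controls, so this p follows from leaving it out and is not support for a difference. In the libraries poor in miR-5119, which include replicate 6, it was 1.54 (exact permutation p = 0.700), and in the others it was -1.52 (exact permutation p = 0.200, the smallest that 5 assignments allow). The distance between C26-bearing replicate 5 and control replicate 1, the nearest pair, is within counting error, with intervals of 0.238 to 0.552 and 0.260 to 0.536.

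**Figure D3:**
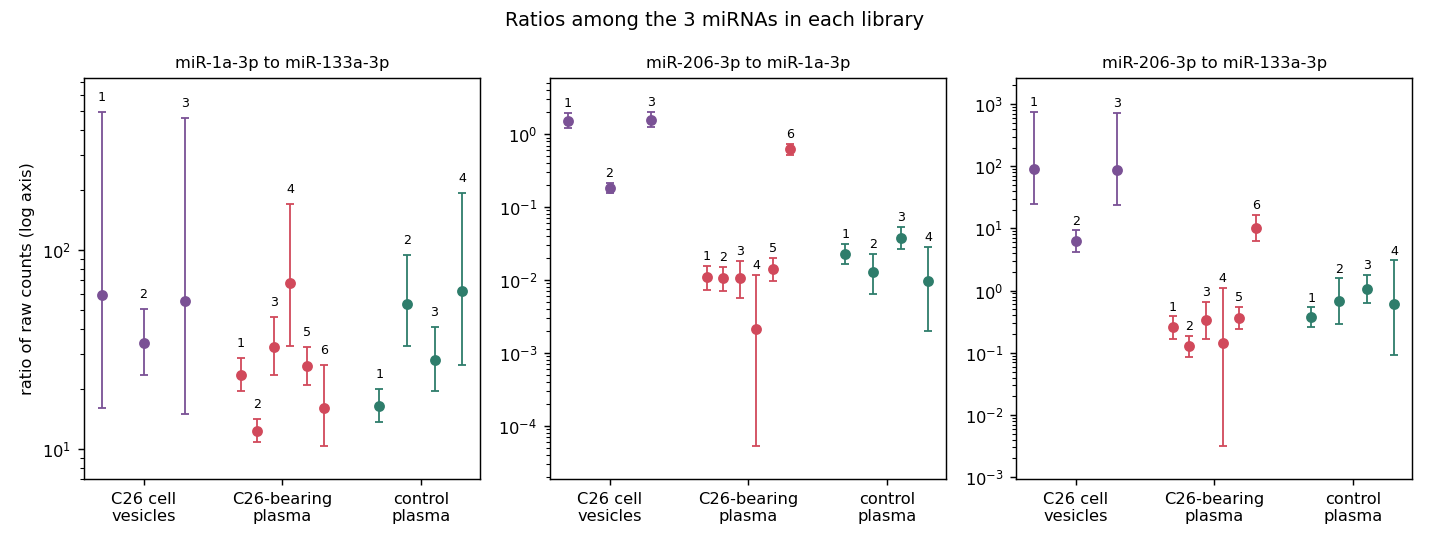
Ratio of raw counts for each pair of the 3 miRNAs in each library on log axes, with replicate numbers and exact 95% binomial intervals (counting error only). C26-bearing replicate 6 stands apart from the other plasma libraries in both ratios with miR-206-3p, at 0.625 to miR-1a-3p and 10.0 to miR-133a-3p.

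C26-bearing replicate 6 stood apart in its level of miR-206-3p, and this library and the miRNAs named with it were chosen after their values were seen. Of the 130 miRNAs tested, 19 were higher in this library than in each of the other 9 plasma libraries, 6 of them more than 2-fold. miR-206-3p had the largest such excess, 4.57-fold over the highest other library and 19-fold over the median of the others. It was followed by miR-484 (3.78-fold), miR-155-5p (3.48-fold), miR-328-3p (3.22-fold), miR-486a-5p, known from both red cells and muscle (2.66-fold), and miR-1964-3p (2.08-fold). miR-133a-3p and miR-1a-3p stood at 0.814 and 0.321 of the median of the others. Red cell miRNAs held 53.0% of the counts in this library, against a median of 6.69% over the 6 C26-bearing libraries and a range of 6.04% to 32.0% in controls, and 214 miRNAs had a count, the fewest of the 13 libraries. Most of that red cell share was miR-486a-5p, with 16549 of the 32234 counts, while the red cell miRNA miR-451a stood at 0.375 and miR-16-5p at 0.373 of the median of the other libraries. The part of these in the level of miR-206-3p was not tested.

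**Figure D4:**
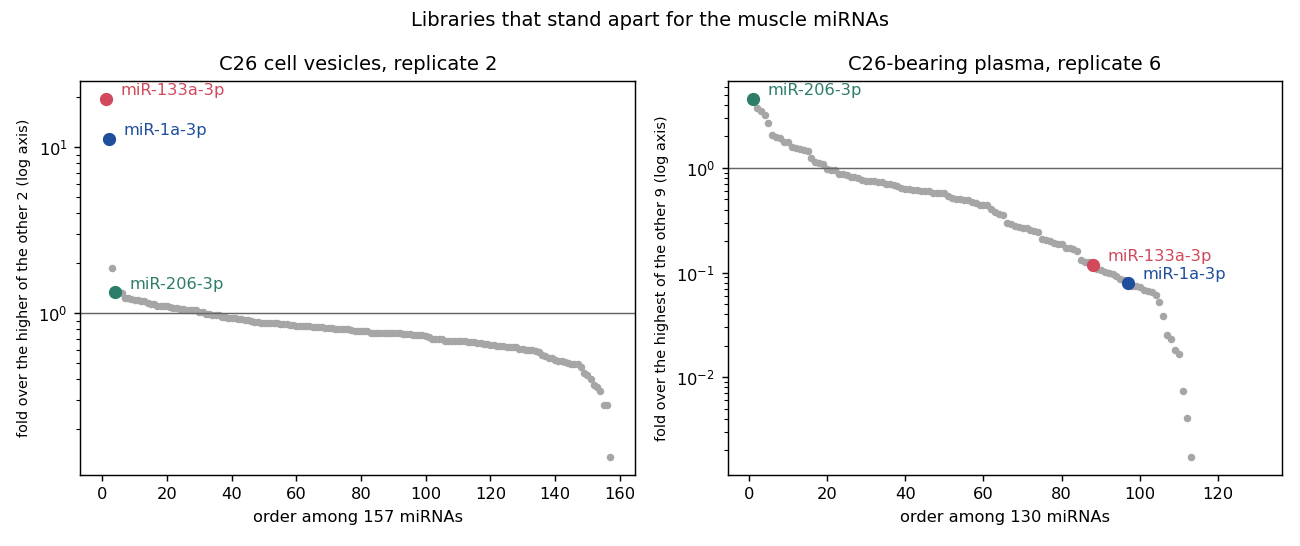
Excess of every miRNA in the 2 libraries that stand apart, ordered from highest to lowest on log axes: CPM in TMV replicate 2 over the higher of the other 2 TMV libraries (157 miRNAs), and TMM-scaled CPM in C26-bearing replicate 6 over the highest of the other 9 plasma libraries (130 miRNAs, of which 17 at 0 cannot be drawn). The line marks equal levels; miR-133a-3p and miR-1a-3p lead on the left at 19.6-fold and 11.2-fold, and miR-206-3p leads on the right at 4.57-fold.

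The composition of the 3 together differed in the same libraries. Together they held 1.76% to 14.9% of all counts in C26-bearing plasma, 0.725% to 4.01% in control plasma and 0.168% to 1.09% in TMVs. miR-206-3p made up 0.207% to 1.35% of their sum in C26-bearing replicates 1 to 5, 37.0% in replicate 6, and 0.940% to 3.57% in controls. In TMVs it made up 60.0%, 15.1% and 60.8%.

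Other miRNAs of striated muscle were rare. Of the 18 listed, 13 had a row in the plasma table, 8 had a count there and the 3 members passed the count filter, so 0 of 15 others could be tested. miR-499-5p, carried in the intron of a slow myosin gene, had 2, 10, 0, 0, 3 and 3 counts in C26-bearing plasma, 15, 0, 22 and 0 in controls and 0 in each TMV library. Its libraries overlapped, with at most 131 CPM in C26-bearing and 167 CPM in control plasma. miR-208a-3p, made from a heart myosin gene, had 0 counts in all 13 libraries. At 3 counts this allows up to 22.8 CPM in the deepest plasma library and up to 377 CPM in the shallowest. miR-208b-3p had 1 count in all. miR-133b-3p, from the same non-coding RNA as miR-206, had 2 counts over all plasma libraries and 0 in TMVs, and its minor arm miR-133b-5p had 1 in plasma, while miR-206-3p had 410 and 539. The minor arm miR-133a-5p had 8 counts, 1.16% of the miR-133a counts in C26-bearing plasma (exact 95% interval 0.427% to 2.51%) and 1.16% in control plasma (0.141% to 4.14%).

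The likeness of the 3 members across plasma libraries depended on which libraries were included. Over the 10 libraries, on log2 TMM-scaled CPM, Pearson's r was 0.84 and Spearman's rho 0.70 for miR-1a-3p with miR-133a-3p, for miR-206-3p with miR-1a-3p 0.17 and 0.33, and for miR-206-3p with miR-133a-3p 0.43 and 0.60. Without the 2 libraries farthest from the median of the first-named miRNA, r was 0.60, 0.50 and 0.70 in the same order. Without C26-bearing replicate 6 r was 0.85, 0.68 and 0.81 and rho was 0.68, 0.72 and 0.80, so the order by rho turned and miR-206-3p with miR-133a-3p was the closest pair. These are descriptions over libraries that share a scaling and the miR-5119 parts.

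The miRNA most like miR-1a-3p by Spearman's rho over the same 10 libraries was miR-199a-3p, with 0.77, followed by miR-8101 with 0.75 and miR-2861 with 0.71. miR-199a-3p was also the most like miR-133a-3p, with 0.81, ahead of miR-143-3p with 0.79 and miR-101a-3p with 0.78. miR-133a-3p was 4th for miR-1a-3p. For miR-206-3p the order was miR-3968 with 0.77, miR-223-5p with 0.71 and miR-133a-3p with 0.60, and miR-1a-3p was 13th. The median rho over the 129 other miRNAs was 0.04 for miR-1a-3p and for miR-133a-3p, and -0.02 for miR-206-3p. miR-199a-3p, known from mesenchymal cells, averaged 1916 TMM-scaled CPM among C26-bearing libraries and 1185 among controls (log2 fold change 0.77, SE 0.766, edgeR adjusted p = 0.746).

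Markers of other sources of RNA were read in the same libraries. Of the smooth muscle list only miR-143-3p passed the count filter (log2 fold change 0.00, SE 0.552), and its list held 0.372% to 2.65% of counts in C26-bearing and 0.716% to 2.27% in control plasma. The red cell list had 2 of 6 tested miRNAs above 0 (median -0.15), with miR-486a-5p at -0.03 (SE 1.1) and miR-451a at -0.28 (SE 0.462), and held 3.54% to 53.0% and 6.04% to 32.0%. The liver list had 1 of 4 above 0 (median -0.94), with miR-122-5p at -1.92 (SE 0.819) and miR-192-5p at -0.98 (SE 0.604), and held 0.855% to 10.5% and 6.78% to 28.3%. The platelet and endothelial list had 4 of 5 above 0 (median 0.65), with miR-126a-3p at 0.37 (SE 0.374) and miR-24-3p at -0.41 (SE 0.428). The white blood cell list had 5 of 7 (median 0.29), with miR-142a-5p at 0.05 (SE 0.379) and miR-146a-5p at -1.18 (SE 0.60). miR-223-3p and miR-150-5p are in both the platelet and the white blood cell list. The highest values there were as large as those of the muscle miRNAs: miR-126a-5p at 3.23 (SE 1.38), miR-223-3p at 2.27 (SE 1.72) and miR-142a-3p at 1.98 (SE 0.914). edgeR's adjusted p was under 0.05 for 0 miRNAs of these lists, and the part of these cells in the muscle miRNA levels was not tested.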

How the data were processed

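The authors deposited raw counts, as whole numbers, of each mature miRNA in 2 tables, one of 1164 miRNAs for 3 TMV libraries and one of 1354 for 10 plasma libraries. Per the labels' protocols, vesicles were pelleted in a last spin at 100000 g for 70 min and libraries were read as 75 bp single reads. bcl2fastq and cutadapt 1.10 are listed in the submitters' processing notes, and no source used here names an aligner or counter. Each library's group and replicate were read from its title.

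The whole plasma table was fitted with edgeR 4.0.16 (R 4.3.3): filterByExpr by group with a minimum count of 10, TMM scaling, robust quasi-likelihood test, Benjamini-Hochberg adjustment at 0.05; the SE is the log2 fold change divided by the square root of F. The fit was tested on simulated data with larger changes and less spread among libraries than found here. That check does not show whether changes of the members' size would be called. Likeness used log2 TMM-scaled CPM with a prior count of 2. Ratios used 0.5 added to each count and exact two-sided permutation tests. Intervals are at 95% (exact Poisson for counts, Clopper-Pearson for ratios and shares) and describe counting error alone, because PCR copies cannot be told from separate molecules. Alternatives were RLE, upper quartile and no scaling, other filters, DESeq2 1.42.0, limma 3.58.1 voom, no robust estimation, a replicate block, left-out libraries and the miR-5119 parts, split at 20% of counts. Named miRNAs were the 3 members, other striated muscle miRNAs with a count, the 3 most alike by rho, and the 2 most abundant tested of each other list. The highest log2 fold changes of the platelet, endothelial and white blood cell lists were added after their values were seen. The members and lists were chosen with earlier results of these data known.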

Additional observations from a re-analysis of the deposited data

Results flagged for a closer look

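Of 12 sets of values examined, 3 were flagged, all in C26-bearing plasma. In each of these 3, replicate 6 lay far from the other 5 libraries of its group. Chance flags about 1 in 20 sets drawn from a normal spread, a rate that need not hold for levels that are not logged. These 3 sets share the miR-206-3p count of that library. Its miR-206-3p level was 7349 TMM-scaled CPM, and the gap to the next library was 0.792 of the group's range, against a critical value of 0.625 for 6 libraries. This flag depends on the scale. On log2 TMM-scaled CPM the library stood at 12.85, the next at 10.68 and the lowest at 7.09, so the gap is a smaller part of the range. Its log2 ratio of miR-206-3p to miR-1a-3p was -0.68, with a gap of 0.713 of the range. Its log2 ratio of miR-206-3p to miR-133a-3p was 3.29, with a gap of 0.760.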

How the results depend on the processing

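The log2 fold changes of the 3 miRNAs stayed above 0 in all 25 alternatives each. They ran from 0.38 to 2.52 for miR-1a-3p, from 1.35 to 2.78 for miR-133a-3p and from 0.32 to 4.13 for miR-206-3p, and the one call was miR-133a-3p with limma voom (2.78). The replicate block gave 1.78, 2.22 and 0.77 in turn. C26-bearing replicates 5 and 6 have no control of the same number, so these estimates rest on the other libraries. Same-numbered libraries correlated at -0.37, -0.29, -0.30 and 0.16 in their deviations from the group means, so the numbers were not treated as pairs, and the block changed no call. The number of miRNAs called, 0 in the reported fit, was 4 without a filter, 4 with DESeq2, 17 with voom, 2 with the miR-5119 part in the model, 1 in the libraries with over 20% miR-5119, and 0 to 1 with each library left out. At an unadjusted p under 0.05 edgeR had 15.

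The log2 ratio difference of miR-206-3p to miR-1a-3p, -0.07, changed sign without both controls with 2 numbers (0.18), without the 2 libraries under 10000 counts (0.18), in libraries under 20% miR-5119 (2.05) and from summed counts (0.46), and ran from -1.09 to 0.44 with each library left out. That of miR-206-3p to miR-133a-3p was 1.54 in libraries under 20% miR-5119, 0.20 from summed counts, and -1.40 to -0.16 with each library left out. The cause was not tested, except that the lowest value of each range is the one without C26-bearing replicate 6. The depth of C26-bearing replicate 4 and control replicate 4 limits miR-206-3p, with 1 and 3 counts there.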
